A study of Mus musculus with 7 samples.

Results

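The genes of blood coagulation and fibrinolysis were examined in regenerating mouse liver, in mice that lack the lymphotoxin beta receptor (LTBR), a receptor of the tumour necrosis factor receptor family, and in wild-type mice. They were the probes of 32 listed genes, chosen by the gene symbol in the platform annotation. Of these genes, 31 had at least 1 probe, 62 probes in all, out of 19057 gene symbols and 45281 probes on the array, and Cpb2, the gene of the fibrinolysis inhibitor TAFI, was not analysed here. The LTBR KO group held 4 samples and the WT group 3. All were whole livers of C57BL/6 mice taken 12 h after partial hepatectomy (PHx), the removal of part of the liver, after which the remnant regenerates. Both groups were operated on, so differences already present in unoperated liver and differences that came with regeneration cannot be told apart. The labels name neither the deleted allele nor the age or sex of the mice, and whether the samples came from separate animals is not stated. The p-values therefore reflect sample-to-sample spread only, part of which may be technical. In whole tissue, fewer cells of a type and less RNA per cell cannot be told apart.

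Clotting proceeds as a cascade of serine proteases that ends with thrombin cutting fibrinogen into fibrin, and hepatocytes make most of its plasma proteins, the anticoagulant proteins C and Z, and plasminogen, the precursor of the fibrin-cleaving protease plasmin. Several of these proteins need vitamin K to become carboxylated before they are secreted. Endothelium and other cells supply the surface proteins that start or restrain clotting and the activators of plasminogen, among them urokinase, which can also activate hepatocyte growth factor. The study compared the genotypes to ask what loss of LTBR does to liver regeneration. The listed genes are given below by role, first those made mainly by hepatocytes and then the vascular and protease genes.

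Each sample was hybridised to 1 single-colour Illumina bead array. The deposited values are linear intensities that the authors had normalized between arrays, and they ran from 72.6 to 30878 with a median of 91.1. A probe was kept where it lay above a background floor of 93.6 on at least 3 arrays, and each gene was then represented by its brightest kept probe. Differences are KO minus WT on the log2 scale after background correction, fitted by limma over 13190 genes or unnamed probes, and adjusted p is by Benjamini-Hochberg over all of them. The targeted gene had an intensity of 120.0, 136.8, 129.3 and 110.5 in KO and of 160.5, 193.6 and 216.9 in WT (Ltbr; log2 difference -1.04, SE 0.20, adjusted p = 0.088). KO replicate 3 and WT replicate 3 received the lowest weights, 0.46 and 0.57, when arrays were weighted by their fit. Without both of them 569 genes or probes passed an adjusted p of 0.05, against 9 with all arrays. Leaving out this pair was chosen after seeing the data, so passing without it is not counted as a call. Markers of hepatocytes were present, with Hp at 19127 to 24878 in KO and 22079 to 24420.4 in WT and Ttr at 22819.8 to 24186 in KO and 22361 to 24878 in WT, while the Alb probe used was dim, at 130.6 to 218.4 in KO and 122.3 to 279.3 in WT.

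Of the 31 genes with a probe, 29 were tested. F3, the tissue factor gene that triggers clotting, and F13a1, the catalytic subunit of the fibrin-stabilising factor XIII, were not above the floor on enough arrays. None of the 29 passed an adjusted p of 0.05 in the limma fit, where 0.0682% of all genes tested did (0.0607% lower and 0.00758% higher in KO). At an unadjusted p under 0.05, 7 were lower and 1 was higher in KO, against 6.52% and 8.25% of all genes tested. In 6 the 4 KO values lay below all 3 WT values and in 1 above them, by a gap of more than 0.001 on the log2 scale, against 5.45% and 7.54% of all genes tested. A lower KO mean was found for 25 of the 29, against 45.7% of all genes tested. The median log2 difference was -0.26 over the 29 genes and 0.03 over all genes tested. The listed genes were chosen with earlier results of these data known. All genes tested, with a median level of 6.2 (log2), were not matched to them in brightness.

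**Figure D1:**
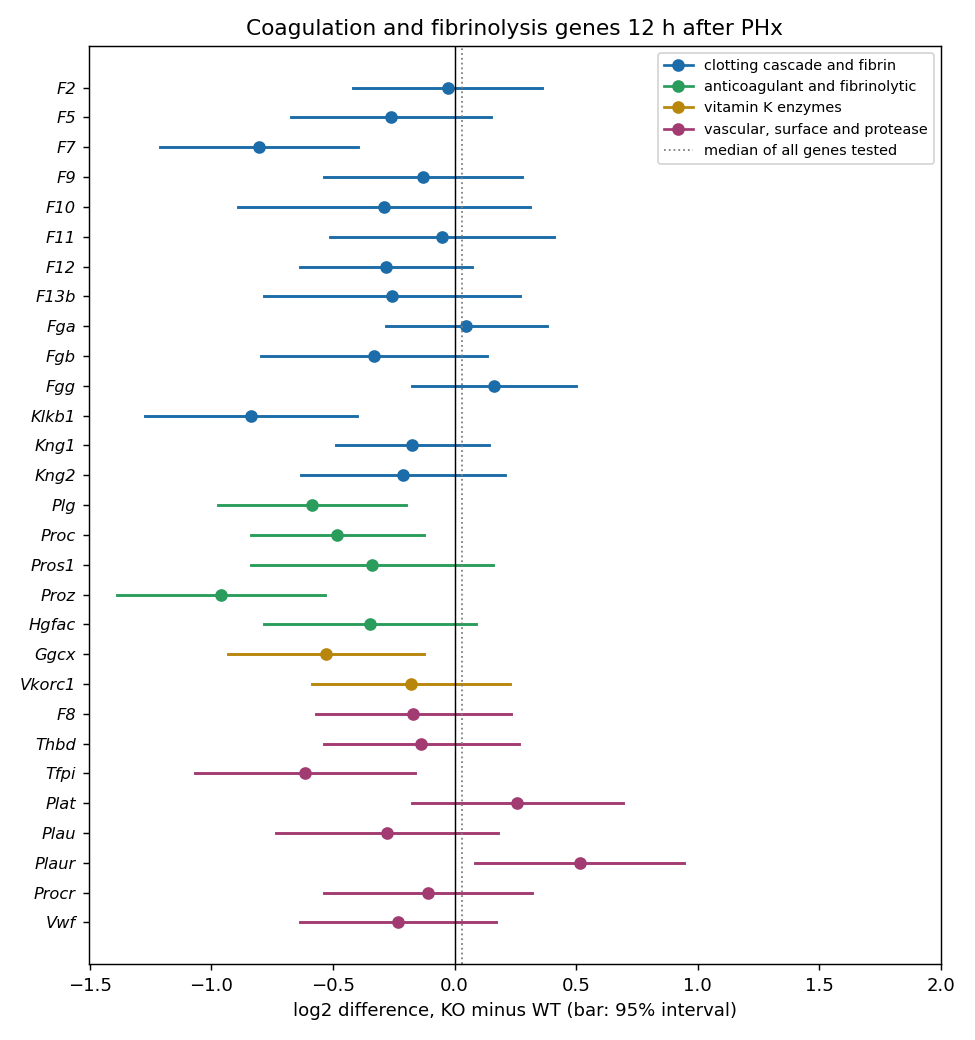
Log2 difference of KO minus WT (x axis) for the 29 tested genes, by role, with bars for the 95% interval of the limma fit. The interval lies below 0 for 7 genes (Ggcx, F7, Klkb1, Plg, Proc, Proz and Tfpi) and above 0 for 1 (Plaur), and it crosses 0 for the others.

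Most of the genes with a lower KO mean were liver-made factors, 17 of 19 tested, with a median log2 difference of -0.28, and in 6 the groups did not overlap (F7, Klkb1, Kng1, Plg, Proc and Proz). Their mean deviation from each gene's overall level was -0.26 to -0.04 (log2) in the KO samples and 0.06 to 0.29 in the WT samples. By comparison, 9 of 9 tested hepatocyte markers lay below 0 as well, with a smaller median of -0.07, and none of them had groups that did not overlap. The values of these markers overlapped, -0.22 to 0.08 in KO and -0.16 to 0.21 in WT, and their part in the result was not tested. The markers were not matched to the liver-made genes in brightness. Ttr, Apoa1, Ahsg and Hp lay near the top of the scale, as did Fga and Kng1, and Alb and Tat were dim. Vascular and protease genes had 6 of 8 below 0 and a median of -0.15.

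Some of these genes lie side by side on chromosome 8. F7, F10 and Proz follow each other within chr8:13025506-13076026 (GRCm38.p6, RefSeq), and F11 and Klkb1 within chr8:45240659-45294835. The promoters of these 5 genes are shown because neighbours differed in whether KO and WT values overlapped at the brightest probe. Whether the differences of neighbours are unlike each other was not tested. They run from 250 bases before the annotated start to 50 after it, from RefSeq on GRCm38.p6, each read on its gene's own strand. The starts used for F7, Proz and F11 lie inside the annotated span of the gene, and distances below are counted from the start used. Capitals mark matches, on either strand, to motifs of liver-enriched factors: the HNF4 site CAAAGNNCA, the HNF1 half-site GTTAAT, the forkhead site TGTTTAC and the C/EBP site TTGCNNAA.
F7 (chr8:13025784-13026083, + strand): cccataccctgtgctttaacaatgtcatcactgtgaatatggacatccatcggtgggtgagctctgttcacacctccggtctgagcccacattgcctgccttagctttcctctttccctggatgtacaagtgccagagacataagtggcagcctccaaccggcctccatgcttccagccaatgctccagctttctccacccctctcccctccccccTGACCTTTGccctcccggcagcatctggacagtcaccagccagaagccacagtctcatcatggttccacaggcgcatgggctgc
F10 (chr8:13037058-13037357, + strand): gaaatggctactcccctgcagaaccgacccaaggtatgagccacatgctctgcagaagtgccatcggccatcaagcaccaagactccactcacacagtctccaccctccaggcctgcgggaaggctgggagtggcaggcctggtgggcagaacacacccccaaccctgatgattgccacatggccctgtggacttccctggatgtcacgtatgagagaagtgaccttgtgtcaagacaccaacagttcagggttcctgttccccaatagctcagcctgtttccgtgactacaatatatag
Proz (chr8:13060658-13060957, + strand): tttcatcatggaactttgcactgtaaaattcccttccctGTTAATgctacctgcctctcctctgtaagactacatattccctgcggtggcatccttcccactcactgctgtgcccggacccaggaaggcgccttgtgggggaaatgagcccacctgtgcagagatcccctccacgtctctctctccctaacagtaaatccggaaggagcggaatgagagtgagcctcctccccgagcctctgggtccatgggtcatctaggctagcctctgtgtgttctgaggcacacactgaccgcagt
F11 (chr8:45261982-45262281, - strand): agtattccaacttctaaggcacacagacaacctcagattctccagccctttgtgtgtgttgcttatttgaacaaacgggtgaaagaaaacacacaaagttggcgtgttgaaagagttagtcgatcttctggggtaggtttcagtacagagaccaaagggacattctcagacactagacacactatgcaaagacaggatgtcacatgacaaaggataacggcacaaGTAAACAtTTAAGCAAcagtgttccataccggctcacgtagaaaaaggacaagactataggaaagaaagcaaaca
Klkb1 (chr8:45294786-45295085, - strand): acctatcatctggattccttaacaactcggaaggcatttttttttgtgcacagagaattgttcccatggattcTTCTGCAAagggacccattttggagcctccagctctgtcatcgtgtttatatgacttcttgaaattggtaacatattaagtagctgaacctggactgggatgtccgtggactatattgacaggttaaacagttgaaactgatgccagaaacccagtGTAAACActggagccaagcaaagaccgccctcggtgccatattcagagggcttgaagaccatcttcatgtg
The F7 window held an HNF4 match that begins 34 bases before the start, the Proz window an HNF1 half-site 211 bases before it, and the F10 window no match. F11 and Klkb1 each held a forkhead match, 25 and 21 bases before the start, and a C/EBP match. Among all 32851 promoter windows of this length, 6.36% held the HNF4 motif, 7.1% the HNF1 half-site, 3.65% the forkhead motif and 10.8% the C/EBP motif. Windows were found for 25 of the 32 genes, 27 windows in all. Of the 17 liver-made genes with a window, 4 held the HNF4 motif, 6 the HNF1 half-site, 2 the forkhead motif and 7 the C/EBP motif. A gene was counted once if any of its windows held the motif, whereas the shares above are of windows. These matches describe letters in a window and say nothing of binding. No window of Plg, Proc or Kng1 is shown.

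Factor VII starts the cascade together with tissue factor. F7 had an intensity of 153.2, 157.7, 170.8 and 143.3 in KO, against 190.7, 261.5 and 232.7 in WT. All 4 KO samples were below the lowest WT sample. With a log2 difference of -0.80 (SE 0.19, 95% interval -1.21 to -0.39), F7 missed the threshold (adjusted p = 0.11). Protein Z, a vitamin K-dependent cofactor for inhibition of factor Xa, had the largest difference among the 29 tested genes. Proz had an intensity of 212.1, 279.2, 305.8 and 285.6 in KO, against 473.4, 512.4 and 406.9 in WT. The highest KO sample lay well under the lowest WT sample, and KO replicate 1 was lowest. Its log2 difference of -0.96 (SE 0.20, 95% interval -1.39 to -0.53), 1.95-fold lower in KO, had an adjusted p of 0.088. It passed when KO replicate 3 and WT replicate 3 were both left out (-1.15, adjusted p = 0.019), as did 569 genes or probes in all.

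F10, the gene between them, encodes the protease that makes thrombin from prothrombin, and it did not show the same separation. F10 had an intensity of 1290.2, 1268, 2539 and 1591 in KO, against 2315, 2299 and 1382 in WT. KO replicate 3 was the highest of all arrays and WT replicate 3 lay among the other KO samples, so the groups overlapped. F10 gave a log2 difference of -0.29 (SE 0.27, 95% interval -0.89 to 0.31) with an adjusted p of 0.68, and without KO replicate 3 and WT replicate 3 it was -0.77 and past the threshold (adjusted p = 0.043).

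Plasma prekallikrein (Klkb1) acts in the contact pathway, in which it and factor XII activate each other and kininogen is cut to release bradykinin. Klkb1 had an intensity of 304.1, 421.0, 312.0 and 346.5 in KO, against 567.0, 681.2 and 463.8 in WT. The groups did not overlap. The log2 difference was -0.84 (SE 0.20, 95% interval -1.27 to -0.40) with an adjusted p of 0.12, and -0.94 without KO replicate 3 and WT replicate 3 (adjusted p = 0.037). Its neighbour F11, the gene of factor XI, was at 1217 to 2052 in KO and 1325 to 1586 in WT, with a log2 difference of -0.05 (SE 0.21, 95% interval -0.51 to 0.41). That difference changed sign when single arrays were left out, among them KO replicate 3 (0.02). KO replicate 4 was the highest array, and the other KO samples lay below all WT samples. Kininogen 1 (Kng1) lay near the top of the scale. Kng1 had an intensity of 19648, 21425, 21599 and 20975 in KO, against 24566, 22819.8 and 23372 in WT. At this brightest probe all KO samples were lower than all WT samples, by a log2 difference of -0.17 (SE 0.14, 95% interval -0.49 to 0.14, adjusted p = 0.63). The second-brightest Kng1 probe gave -0.41 (SE 0.16, adjusted p over all kept probes = 0.28), again with all KO values below all WT values. The dimmest gave -0.95 (SE 0.34, adjusted p over all kept probes = 0.24), but there the groups overlapped, with WT replicate 3 at 128.5. Mice have a closely related second kininogen gene, Kng2, whose probes may share signal with Kng1. Its intensity was 1764 to 2825 in KO and 2483 to 3075 in WT, with a log2 difference of -0.21 (SE 0.19, 95% interval -0.63 to 0.21), or 0.02 without KO replicate 3 and WT replicate 3. F12, the gene of factor XII, was at 1573 to 2037 in KO and 1998 to 2413 in WT, and its log2 difference was -0.28 (SE 0.16, 95% interval -0.64 to 0.07).

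**Figure D2:**
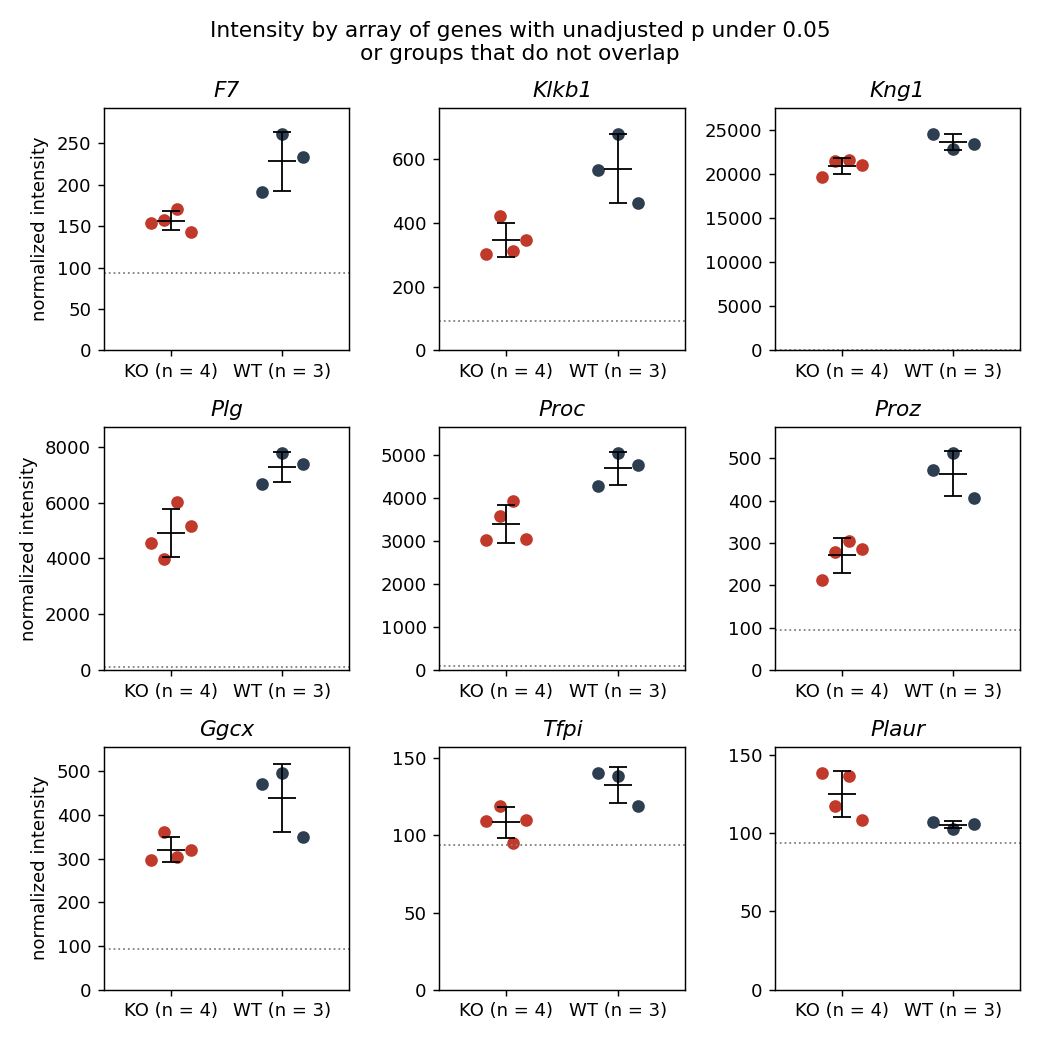
Deposited normalized intensity (y axis, linear from 0) on each of the 4 KO and 3 WT arrays for the 9 genes with an unadjusted p under 0.05 or with groups that did not overlap. Horizontal marks and bars are the mean and SD, and the dotted line is the background floor of 93.6. KO points lie below WT points for all but Ggcx, Tfpi and Plaur: Ggcx groups overlap, the highest Tfpi value in KO meets the lowest in WT, and Plaur is higher in KO.

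Prothrombin and factor IX showed no such separation. F2 had an intensity of 2158, 2373, 2800.0 and 2144 in KO, against 2882, 2339 and 2054 in WT. F9 had an intensity of 2800.0, 2487, 3882 and 2889 in KO, against 3515, 3441 and 2834 in WT. In both genes KO replicate 3 and WT replicate 1 were among the 3 highest arrays. The log2 differences were -0.03 (SE 0.18, 95% interval -0.42 to 0.36) for F2 and -0.13 (SE 0.19, 95% interval -0.54 to 0.28) for F9, whose intervals also leave room for differences of either sign. Factor V, the cofactor with which factor X makes thrombin, was at 1338 to 1680.4 in KO and 1434 to 2253 in WT at its brightest probe (log2 difference -0.26, SE 0.19). F13b, the carrier subunit of factor XIII, was at 1309.5 to 1708 in KO and 1142 to 2406 in WT (log2 difference -0.26, SE 0.24). WT replicate 3 gave the lowest F13b value and WT replicate 1 the highest, so WT alone spanned the whole range of KO.

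The fibrinogen genes, whose products assemble into fibrinogen and are induced in the acute phase response, included both liver-made genes with a higher KO mean, Fga and Fgg. Fga, the alpha chain, was close to the upper end of the scale. Fga had an intensity of 25953, 27019, 24186 and 23597 in KO, against 25953, 25362 and 21870.5 in WT. WT replicate 3 was the lowest array and the groups overlapped (log2 difference 0.05, SE 0.15). Without KO replicate 3 and WT replicate 3 the difference was -0.01. Fgg, the gamma chain, had the higher KO mean. Fgg had an intensity of 5294, 4486, 5331 and 5731 in KO, against 4853, 4452 and 4645 in WT. The groups overlapped through KO replicate 2, and the log2 difference was 0.16 (SE 0.15, 95% interval -0.18 to 0.50; adjusted p = 0.68). The single probe of Fgb, the beta chain, lay close to the floor. Fgb had an intensity of 93.0, 101.3, 92.7 and 98.4 in KO, against 115.8, 111.4 and 91.9 in WT. It exceeded the floor on 4 of 7 arrays, and its log2 difference of -0.33 (SE 0.21, 95% interval -0.80 to 0.13) therefore rests on values near background.

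Plasminogen, the zymogen of plasmin, was lower in KO at every probe. Plg had an intensity of 4544, 3966, 6007 and 5151 in KO, against 6683, 7775 and 7387 in WT. The 4 KO samples all lay below the 3 WT samples. At this brightest probe the log2 difference was -0.59 (SE 0.18, 95% interval -0.97 to -0.20; adjusted p = 0.17). Protein C, the vitamin K-dependent anticoagulant that inactivates factors V and VIII, had a like pattern. Proc had an intensity of 3026, 3575, 3928 and 3041 in KO, against 4283, 5039 and 4756 in WT. The groups did not overlap, and the log2 difference was -0.48 (SE 0.16, 95% interval -0.84 to -0.12; adjusted p = 0.21). Protein S (Pros1), its cofactor, was at 509.3 to 891.7 in KO and 753.5 to 1102 in WT. KO replicate 3 was the lowest array and WT replicate 3 the highest. Between the groups the log2 difference was -0.34 (SE 0.23, 95% interval -0.83 to 0.16), and it was 0.01 without those 2 arrays. Hgfac, which encodes a protease that activates hepatocyte growth factor, was at 1145 to 1803 in KO and 1448 to 1919 in WT (log2 difference -0.35, SE 0.20). Its highest KO value was again that of KO replicate 3.

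Taken by their need for vitamin K, the 7 dependent genes F2, F7, F9, F10, Proc, Pros1 and Proz all had a lower KO mean, with a median log2 difference of -0.34, a range from -0.96 to -0.03 and 3 genes whose groups did not overlap. Over all genes tested, 45.7% had a lower KO mean and 5.45% had all KO values below all WT values. Over the 19 liver-made genes tested, which include these 7, the shares were 89.5% and 31.6%, with a median of -0.28. A lower KO mean was thus not particular to the vitamin K-dependent genes. Pros1 and F2 are among the listed genes whose sign turned under an alternative. Ggcx encodes the carboxylase that modifies these proteins. Ggcx had an intensity of 297.1, 361.1, 302.9 and 321.1 in KO, against 471.5, 496.9 and 349.2 in WT. WT replicate 3 lay within the KO range, and the log2 difference was -0.53 (SE 0.18, 95% interval -0.93 to -0.12; adjusted p = 0.22). Vkorc1 encodes the reductase that recycles vitamin K. Vkorc1 had an intensity of 1719, 1899, 2198 and 2059 in KO, against 2544, 2487 and 1713 in WT. WT replicate 3 was the lowest array of all 7 and the groups overlapped, with a log2 difference of -0.18 (SE 0.19, 95% interval -0.59 to 0.23).

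**Figure D3:**
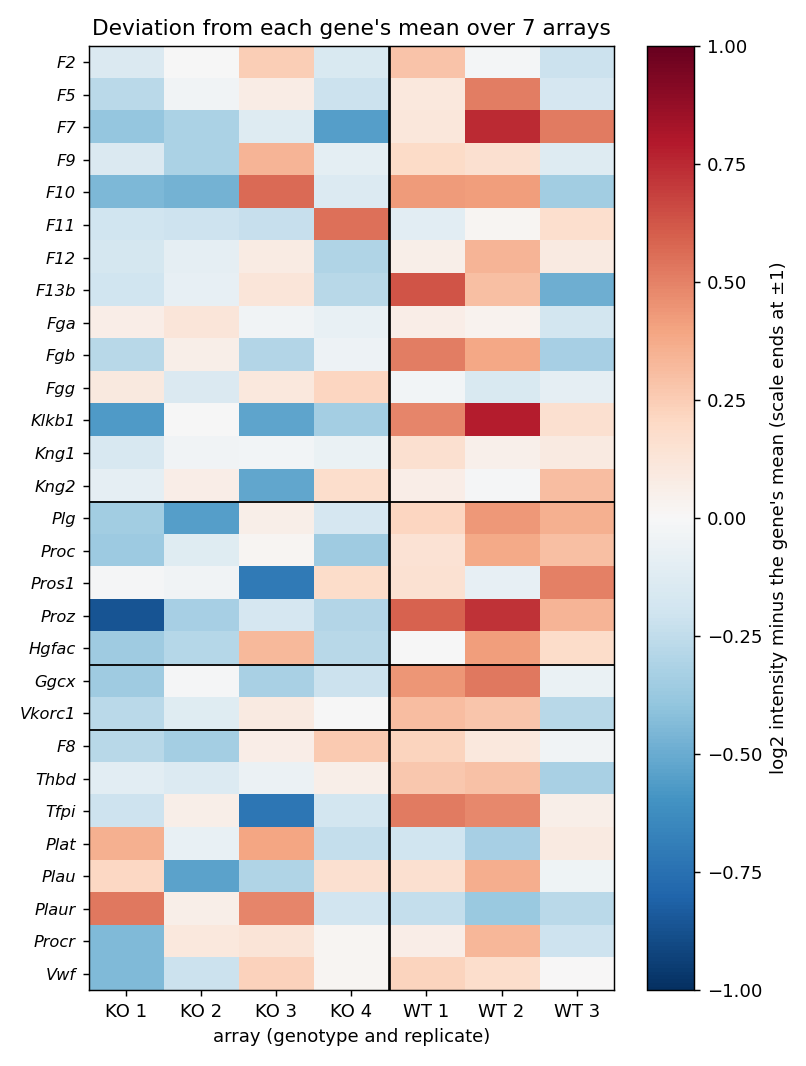
Deviation of each tested gene (rows, by role) from its mean over the 7 arrays, on the log2 scale, with KO arrays left of WT arrays. F7, Klkb1, Proz, Plg and Proc are above their mean in all 3 WT arrays, while F10 and F9 are above it in KO replicate 3 and below it in WT replicate 3.

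The size of the differences depended on the probe. Of the 29 genes, 15 had several kept probes, with 24 probes besides the brightest. For the liver-made genes 15 of 16 such dimmer probes gave a lower (more negative) difference than the gene's brightest probe, against 65.4% of 5581 dimmer probes over all genes, and by a median of -0.232 against -0.105 there. KO values lay below all WT values at 11 of these 16 probes and at 12 of the 24 dimmer probes of all listed genes, against 8.98% of the dimmer probes over all genes. Over all 53 kept probes of the listed genes, the brightest included, this held for 18, against 6.5% of all kept probes, and the opposite held for 2, against 6.31%. Probes of the same gene were counted separately in these shares, although they were read on the same samples. All kept probes of Plg, Klkb1, Proc and Proz had KO values below all WT values. The counts of probes therefore do not stand for as many independent genes. Probe sequences were not used here, and whether the probes of a gene report the same transcripts was not tested.

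Plg was the only listed gene with a probe past the threshold when every kept probe was tested as its own feature, against 0.0639% of 18771 probes in either direction and 0.0586% lower in KO. The third-brightest probe of Plg had an intensity of 445.0, 317.6, 327.4 and 454.1 in KO, against 872.7, 1156 and 884.1 in WT. The groups were far apart at this probe, the third brightest of 4. The log2 difference was -1.50 (SE 0.21), with an adjusted p of 0.036. It lay between -1.60 and -1.36 with each array left out in turn, and then passed only without KO replicate 3 (adjusted p = 0.049) or WT replicate 3 (adjusted p = 0.035; 0.0090 without both), the largest adjusted p being 0.29, without WT replicate 2. The second Plg probe gave -0.72 (SE 0.20) and the dimmest, near the floor, -0.70 (SE 0.22).

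F5 and F12 separated the genotypes only at dimmer probes. The second-brightest probe of F5 had an intensity of 252.0, 279.8, 259.3 and 237.9 in KO, against 462.2, 464.0 and 397.6 in WT. The highest KO value lay far under the lowest WT value, with a log2 difference of -0.96 (SE 0.16) (adjusted p over all kept probes = 0.054). The third-brightest probe of F12 had an intensity of 169.8, 176.2, 181.3 and 178.5 in KO, against 235.9, 353.1 and 395.1 in WT. The difference there was -1.16 (SE 0.21; adjusted p = 0.070), and the second gave -0.66 (SE 0.18; adjusted p = 0.14). The KO samples were within a narrow band at this probe and the WT samples were spread. The second probes of Klkb1 (log2 difference -1.07), Proz (log2 difference -1.05) and Proc (log2 difference -0.82) also kept KO below WT on all arrays, with adjusted p of 0.064, 0.073 and 0.082. Kng2 did so at its dimmer probe only (log2 difference -0.63, adjusted p = 0.19). There the highest KO value, 928.0, almost met the lowest WT value, 929.2. Ggcx probes disagreed, since 1 of 4 was higher in KO (log2 difference 0.17) while the other 3 lay between -0.72 and -0.42.

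**Figure D4:**
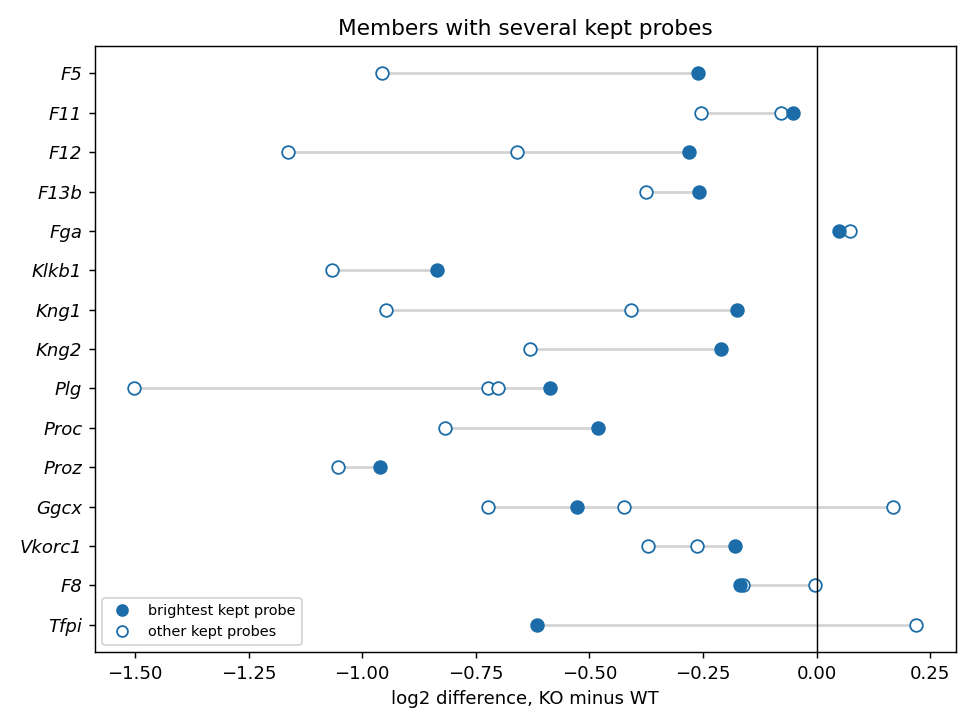
Log2 difference of KO minus WT (x axis) at each kept probe of the 15 genes with several, filled for the brightest probe and open for the others. Open points lie to the left of the filled point for 15 of 16 dimmer probes of liver-made genes, the exception being Fga, and probes of Ggcx and Tfpi fall on both sides of 0.

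Most vascular and protease genes were dim. Tfpi, tissue factor pathway inhibitor of endothelium, was just above the floor. Tfpi had an intensity of 109.5, 119.0, 95.2 and 110.2 in KO, against 140.6, 138.6 and 119.0 in WT. The highest KO and the lowest WT intensity were tied, so the groups touched. Its log2 difference was -0.62 (SE 0.21, 95% interval -1.07 to -0.16; adjusted p = 0.2) at the brightest probe, but 0.22 at its other kept probe, and averaging both probes gave -0.20. Plaur, the urokinase receptor, was the only listed gene with all KO samples above all WT samples at its brightest probe. Plaur had an intensity of 138.4, 117.1, 136.2 and 108.5 in KO, against 107.0, 102.8 and 105.8 in WT. The log2 difference was 0.51 (SE 0.20, 95% interval 0.08 to 0.94; adjusted p = 0.26), and the lowest KO sample exceeded the highest WT sample by little. Urokinase itself (Plau) was at background on several arrays. Plau had an intensity of 94.99, 81.7, 85.1 and 94.0 in KO, against 94.0, 98.8 and 89.8 in WT. The groups overlapped, with 4 of the 7 arrays above the floor, and the log2 difference was -0.28 (SE 0.21, 95% interval -0.73 to 0.18).

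Plat, tissue plasminogen activator, was at 112.5 to 140.3 in KO and 109.3 to 125.2 in WT (log2 difference 0.26, SE 0.20), and 2 further probes were under the floor on all arrays. Von Willebrand factor (Vwf), the platelet-binding protein of endothelium, lies 239 kb from Ltbr on chromosome 6. Vwf had an intensity of 108.6, 116.4, 136.4 and 126.0 in KO, against 135.8, 133.4 and 125.4 in WT. The groups overlapped, and the log2 difference of -0.23 (SE 0.18, 95% interval -0.64 to 0.17) missed the threshold. Thrombomodulin (Thbd), the endothelial receptor with which thrombin activates protein C, was at 569.5 to 642.4 in KO and 505.6 to 743.0 in WT (log2 difference -0.14, SE 0.18). F8, the factor IX cofactor made by endothelium, was at 165.6 to 218.6 in KO and 189.5 to 214.6 in WT (log2 difference -0.17, SE 0.18). Procr, the protein C receptor, was at 85.1 to 96.3 in KO and 89.2 to 101.6 in WT, close to the floor (log2 difference -0.11, SE 0.19). The F3 probe had an intensity of 88.8, 78.4, 87.5 and 92.1 in KO, against 82.9, 90.8 and 89.8 in WT. The F13a1 probe had an intensity of 92.9, 82.8, 102.3 and 92.3 in KO, against 92.6, 89.7 and 100.2 in WT. Neither F3 nor F13a1 can be ranked between the groups at these levels.

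Markers of cells that express these vascular genes did not share 1 direction. Among endothelial markers 6 of 11 lay below 0, with a median of -0.02. Pecam1, an adhesion molecule of endothelium, had a log2 difference of -0.58 (SE 0.24, 95% interval -1.10 to -0.06), and the mean level of the list was -0.23 to 0.08 in KO and -0.23 to 0.27 in WT. Markers of Kupffer cells and macrophages lay above 0 for 9 of 10, with a median of 0.39 and the scavenger receptor gene Marco at 1.71 (SE 0.35, 95% interval 0.94 to 2.48; adjusted p = 0.088). Their mean level was 0.03 to 0.68 in KO and -0.51 to -0.05 in WT. Platelet and megakaryocyte markers were measured for 5 of 10 genes, with a median of -0.11. Markers of recruited monocytes and neutrophils lay below 0 for 3 of 7 tested (median 0.13). Those of stellate cells and fibroblasts did so for 5 of 10 (median 7.2e-05). Over all genes tested, 45.7% lay below 0. The part of any of these cells in the values of the listed genes was not tested.

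Partners of the same cascades were taken from lists of 10 plasma inhibitors and 25 cofactors, receptors and secretion factors. None of the 27 tested passed the threshold. At an unadjusted p under 0.05, 4 were lower (14.8%) and 2 higher (7.41%), against 6.52% and 8.25% of all genes tested. The groups did not overlap in 2 with KO lower and in 2 with KO higher (7.41% each), against 5.45% and 7.54%. The share furthest above that over all genes, of genes lower at an unadjusted p under 0.05, rests on only 4 genes. The lists were chosen with earlier results of these data known. Serpind1, the gene of heparin cofactor II, a thrombin inhibitor of plasma, came closest. Serpind1 had an intensity of 491.1, 630.0, 481.1 and 662.9 in KO, against 1220.3, 1336 and 976.7 in WT. The groups were far apart, and the log2 difference was -1.15 (SE 0.19, 95% interval -1.57 to -0.73; adjusted p = 0.065, or 0.014 without KO replicate 3 and WT replicate 3). The plasmin inhibitor gene Serpinf2 gave -0.44 (SE 0.17, 95% interval -0.81 to -0.07), with all KO samples below all WT samples. Serping1, the gene of the C1 inhibitor that also blocks plasma kallikrein, gave -0.27 (SE 0.16, 95% interval -0.62 to 0.07), and Serpina10, the inhibitor that acts with protein Z, gave -0.27 (SE 0.19, 95% interval -0.69 to 0.16).

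Among receptors and cofactors, the thrombin receptor gene F2r had the higher KO mean. F2r had an intensity of 1861, 1342, 1612 and 1713 in KO, against 1299, 792.9 and 835.3 in WT. The lowest KO sample lay just above the highest WT sample, WT replicate 1. The log2 difference was 0.81 (SE 0.21, 95% interval 0.35 to 1.27; adjusted p = 0.13). S100a10, whose product forms a plasminogen-binding complex with annexin A2, gave 0.64 (SE 0.20, 95% interval 0.20 to 1.08). Hepsin (Hpn), a hepatocyte surface protease that can activate factor VII, gave -0.72 (SE 0.29, 95% interval -1.35 to -0.09), and Habp2, a plasma protease that can activate factor VII and urokinase, gave -0.57 (SE 0.25, 95% interval -1.11 to -0.03) and passed without KO replicate 3 and WT replicate 3 (-0.97, adjusted p = 0.022).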

How the data were processed

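RNA of 4 LTBR KO and 3 WT livers was measured on single-colour Illumina bead arrays. The deposited intensity values are linear and, from their coinciding quantiles, were normalized between arrays by the authors. Partek is named in the submitters' processing notes, and its version and settings are not given in the sources used here. Another table with 14 columns not tied to samples by name was not used here.

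From these values, background was corrected by normexp (saddle, offset 16), and log2 was taken. The floor of 93.6 is the 0.95 quantile of a Gaussian background, whose centre is the mode of all intensities and whose width comes from values under the mode. Of 45281 probes 18771 lay above it on at least 3 arrays. The brightest kept probe represented each gene. Probes with several symbols (18) or none (10378) were tested unnamed. The 13190 features were fitted with limma 3.58.1 in R 4.3.3 (lmFit and eBayes, two-sided), with Benjamini-Hochberg adjustment over all of them and a threshold of 0.05. The fit was tested on simulated data with independent noise, of the same size on every array for each gene. That setting does not cover arrays of unequal weight, as found here, so it cannot speak to them. The number of arrays limits the precision.

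The members and lists were chosen with earlier results of these data known. Every array's value is given for the genes with an unadjusted p under 0.05, those whose groups did not overlap and a set of main factors, and ranges for the others. From each list of partners, up to 4 genes of smallest p were named. The labels name no batch. Same-numbered KO and WT samples correlated at -0.195, -0.044 and -0.298 in their deviations. Without other pairs beside them these values cannot decide whether samples were paired. The numbers are not stated to pair samples and were not used so in the reported fit. Alternatives covered background correction, normalization, the filter, the probe, the prior, array weights, a replicate block, each array left out, the threshold and, chosen after seeing the data, KO replicate 3 and WT replicate 3 left out together.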

Additional observations from a re-analysis of the deposited data

Results flagged for a closer look

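Within the 4 KO samples, 1 array stood apart from the others in 4 of 57 genes checked, by a gap relative to the group's range above Dixon's critical value for 4 samples. Chance alone flags about 1 in 20 such groups. For F11 the gap was 0.96 of the range, with KO replicate 4 at an intensity of 2052. For Hgfac it was 0.876, with KO replicate 3 at 1803, the highest KO value. For Gas6, a vitamin K-dependent ligand of receptor tyrosine kinases, it was 0.948, with KO replicate 3 lowest at 249.8. For Fgl1, a fibrinogen-like protein of hepatocytes, it was 0.976, with KO replicate 3 lowest at 4896. The WT group, with 3 samples, was too small to be checked in this way.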

How the results depend on the processing

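Of 21 other settings, all but the changed threshold gave a difference for each gene, 20 in all (19 for Fgb, Plau and Procr). Over these, 23 of the 29 genes kept the sign of their difference. The changes of filter, the robust trended prior and testing every kept probe left the estimates as reported, so no sign could turn there. Under at least 1 setting 8 genes passed the threshold. F10 is among them only through leaving out KO replicate 3 and WT replicate 3, which is not counted as a call. The numbers over all genes under the same settings are given further on. The number of listed genes past the threshold, 0 as reported, was 1 with every kept probe tested (Plg), 1 with the probe of largest variance (Plg), 7 with array weights (F7, Klkb1, Plg, Proc, Proz, Ggcx and Tfpi), 1 at a threshold of 0.1 (Proz) and 3 without KO replicate 3 and WT replicate 3 (F10, Klkb1 and Proz). It was 0 with each array left out in turn. For the partners it was 1 with no filter, 4 with array weights, 1 at the threshold of 0.1 and 4 without those 2 arrays, against 0 as reported. Over all genes, 9 passed as reported, 4 without background correction, 19 with no filter, 1 with the floor required on all 7 arrays, 3 with the mean of kept probes, 5 with the probe of largest variance, 2 with a robust trended prior, 963 with array weights, 81 at the threshold of 0.1, 569 without KO replicate 3 and WT replicate 3, and 2 to 5 with each array left out. With the replicate number as a block, on the samples numbered 1 to 3, 3 genes passed and none of those listed.

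The median of the liver-made genes was -0.40 with array weights, -0.48 without KO replicate 3 and WT replicate 3, and -0.36 to -0.20 with each array left out. That of the vascular and protease genes was -0.26, -0.31 and -0.27 to -0.10 under the same settings. Signs turned in 6 genes. With each array left out in turn, F2 ran from -0.14 to 0.11 (above 0 without KO replicate 1, KO replicate 4 or WT replicate 1), F11 from -0.24 to 0.018 (above 0 without KO replicate 1, 2 or 3 or WT replicate 3), Fga from -0.029 to 0.095 (below 0 without WT replicate 3) and Procr from -0.24 to 0.026 (above 0 without KO replicate 1 or WT replicate 2). F2 was at 0.017 with the replicate block. Without KO replicate 3 and WT replicate 3, F11 was at 0.087, Fga at -0.0098, Kng2 at 0.024 and Pros1 at 0.0081. The cause was not tested. Probes near the floor (Fgb, Tfpi, Plau, Plaur, Procr, Vwf) limit what their values can show.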
